A study of Mus musculus with 15 samples.

Results

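The 3 B cell libraries of a circular chromosome conformation capture (4C-seq) series in mouse cells are described here, 1 for each of 3 baits, which are 3 of the 15 samples. They were taken as every library labelled as B lymphocyte cell line and were compared with each other, with the 12 samples of 3T3-L1 cells (24 libraries, 8 for each bait) as the reference for how much libraries of a bait vary. 4C-seq fixes chromatin, cuts it with the restriction enzyme HindIII, ligates ends that lay close together and sequences what was joined to 1 chosen site, the bait. The 3T3-L1 cells, fibroblasts that can be turned into fat cells, were read at days 0, 1, 2 and 6 after confluent cells received dexamethasone, 3-isobutyl-1-methylxanthine and insulin in serum, with 1 sample per day and bait, whose 2 deposited libraries carry the replicate numbers 1 and 2. The 8 libraries of a bait are therefore 2 of each of 4 samples. Ranges are given over the libraries, and means with their SD over the 4 samples, the libraries of a sample being averaged first. For the B cells the labels give no line name, treatment or time, and their growth and treatment fields repeat the text for 3T3-L1 cells. Fixation was 10 min in 2% formaldehyde for all samples, and no genotype or allele is named. The files hold ligated DNA and no RNA, so the label of the B cells could not be set against marker genes.

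The baits stand for loci with different roles. Pparg encodes the nuclear receptor that directs adipocyte formation, Lpin1 a phosphatidate phosphatase of triglyceride synthesis, and Ifng the cytokine interferon gamma, which T cells and natural killer cells make. Contacts of a locus fall steeply with distance along its own chromosome. Contacts on other chromosomes are sparse and follow large compartments of active or inactive chromatin and the place of the chromosome in the nucleus, in which mouse centromeres, at the low-coordinate end of every chromosome, and telomeres often gather apart.

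In each B cell library the site with the most reads lay on the chromosome of the labelled bait. It was chr6:115369246-115369251 for Pparg, chr12:16597111-16597116 for Lpin1 and chr10:117870359-117870364 for Ifng (mm9), which are 76.7%, 11.5% and 90.5% of the way along those chromosomes. The depth differed widely. The Pparg library held 167558 reads, of which 126840 lay more than 10 kb from the bait site. The Lpin1 library held 1972550 and 1495773 such reads, and the Ifng library 767419 and 203827, since 71.6% of its reads were on the bait site itself. Of the reads outside the 10 kb zone, 82.6% (95% Wilson interval 82.4% to 82.8%) fell on the bait chromosome with the Pparg bait. The share was 75.004% (74.9% to 75.1%) with Lpin1 and 79.4% (79.2% to 79.6%) with Ifng. These intervals, like all others given here, cover counting error only, because amplified reads are not independent molecules.

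On the 16 autosomes that hold no bait, 1 read or more made a site captured. The Pparg bait captured 6507 of 642708 HindIII sites (1.01%), the Ifng bait 13271 (2.06%) and the Lpin1 bait 21978 (3.42%). Captured sites had 2.92 reads on average for Pparg, 14.6 for Lpin1 and 2.67 for Ifng, and 43.2%, 28.8% and 56.5% of them had a single read. To make the libraries comparable, the captured share of a window or chromosome was divided by the share of all 16 autosomes in the same library, and the result is called a multiple. The Pparg library, with the fewest captured sites, has the least precision. Its median 1-Mb window held 3 captured sites, against 9 for Lpin1 and 6 for Ifng, and 225 of its 2021 windows held none, against 20 and 52.

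The captured sites followed the position along the chromosome in opposite directions. Each chromosome was divided into 5 segments of equal length, from the lowest coordinates to the highest. With Pparg and Ifng as baits, capture rose from the low-coordinate, centromeric end of the chromosomes to the distal end, and with Lpin1 it fell. The Pparg multiple was 0.59 in the first segment of the chromosomes and 1.56 in the last, and passed through 0.79, 0.92 and 1.17 between them. The Ifng multiple rose in the same way, through 0.65, 0.78, 0.86, 1.10 and 1.65. The Lpin1 multiple was highest in the first segment, at 1.20, went through 1.13, 0.95 and 0.84, and stood at 0.87 in the last segment. The last segment was above the first on 16 of 16 chromosomes with the Pparg bait and on 15 of 16 with Ifng, where chromosome 16 was the exception. With the Lpin1 bait it was above the first on 1 of 16, chromosome 15.

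**Figure D1:**
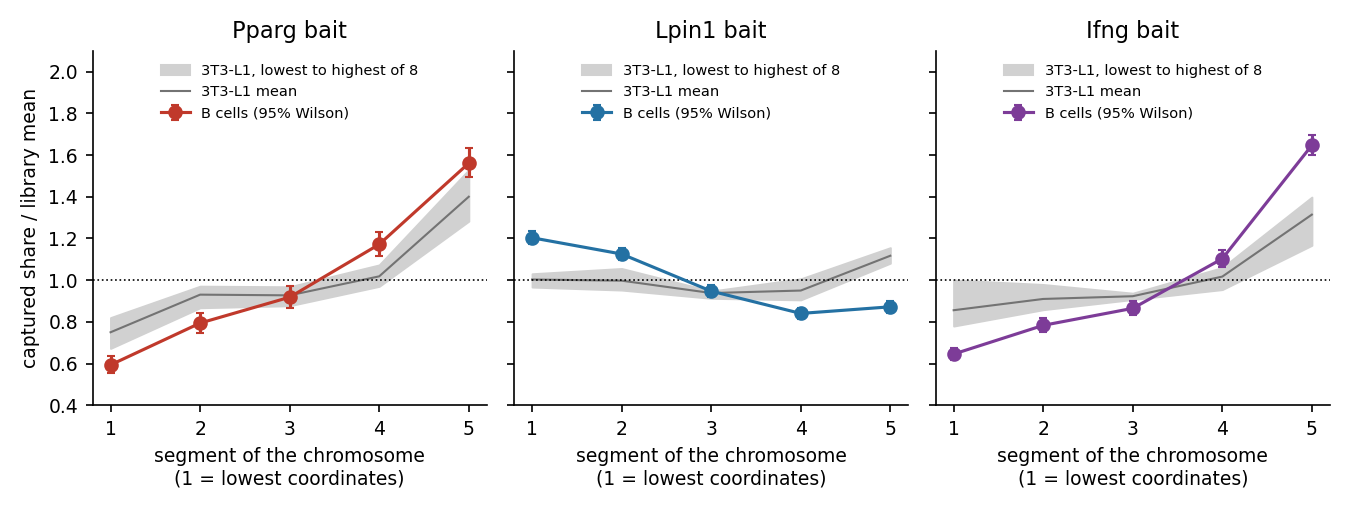
Captured share relative to the library's own mean (y) in each of 5 equal segments of the 16 chromosomes (x), with 1 panel per bait. Coloured points are the B cell library with its 95% Wilson interval, the grey band spans the 8 3T3-L1 libraries and the grey line is their mean. The B cell line is steeper than the band for Pparg and Ifng, from 0.59 to 1.56 and from 0.65 to 1.65, and slopes the other way for Lpin1, from 1.20 to 0.87.

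The same baits had weaker gradients in 3T3-L1 cells. The ratio of the last to the first segment was 2.63 in B cells for Pparg, against 1.57 to 2.15 over the 8 3T3-L1 libraries (mean 1.88 ± 0.183, SD, n = 4 samples). It was 2.55 for Ifng, against 1.17 to 1.79 (mean 1.55 ± 0.129, SD, n = 4). For Lpin1 it was 0.725, against 1.05 to 1.17 (mean 1.11 ± 0.0375, SD, n = 4). Each B cell ratio thus lay outside all 8 3T3-L1 ratios of its bait, and for Lpin1 on the other side of 1. An exact permutation test of 1 sample against 4 cannot pass, since its smallest one-sided p is 0.2, so these are descriptions of the libraries. The gradient did not rest on chromosome 16, without which the ratios were 2.71, 0.743 and 3.03 for Pparg, Lpin1 and Ifng. Counting sites with at least 2 reads gave 2.94, 0.641 and 3.91.

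The outermost sequence showed the same contrast. In the first 5 Mb with HindIII sites, the Lpin1 bait reached a multiple of 1.38 (95% Wilson interval 1.31 to 1.46), above all 8 of its 3T3-L1 libraries (1.17 to 1.34). There the Pparg bait stood at 0.511 (0.432 to 0.604) and Ifng at 0.643 (0.579 to 0.713), each below all of its 3T3-L1 libraries. In the last 5 Mb the order was turned: Ifng stood at 1.81 (1.70 to 1.93), Pparg at 1.77 (1.61 to 1.95) and Lpin1 at 0.994 (0.929 to 1.06). The intervals of Pparg and Ifng overlapped at the distal end, and that of Lpin1 was apart from both. The Lpin1 bait is itself the one near the low-coordinate end of its chromosome, and the other baits lie in the distal part of theirs. Whether the bait's own position has a part in the gradient was not tested.

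All 3 pairs of baits were positively correlated across windows in B cells. Over the 2021 windows of 1 Mb with at least 50 HindIII sites, the Spearman correlation of the captured share was 0.371 between Pparg and Lpin1, 0.408 between Pparg and Ifng and 0.118 between Lpin1 and Ifng. The Pearson values were 0.301, 0.333 and 0.0514. Between the odd and the even HindIII sites of 1 library, the Spearman correlation across windows was 0.350 for Pparg, 0.671 for Lpin1 and 0.480 for Ifng. The low precision of a library limits its correlation with others, and the values between baits were not corrected for it. Windows are not independent points: they share the library, and adjoining windows correlated at 0.434 (Pparg), 0.520 (Lpin1) and 0.499 (Ifng). Taken chromosome by chromosome, the correlation was positive on 16 of 16 chromosomes for both pairs with Pparg. On chromosome 16, however, Pparg and Ifng stood at 0.00077, the lowest of the 16, against a median of 0.371. For Lpin1 and Ifng it was positive on 12 of 16, and it was lowest on chromosome 2, at -0.0922.

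Across 1-Mb windows in 3T3-L1 cells, the Ifng bait ran against the other baits. Over the 16 same-day pairs of libraries, Pparg and Ifng correlated at -0.394 to -0.0144 (median -0.147) and Lpin1 and Ifng at -0.314 to -0.0779 (median -0.158). The B cell values of both Ifng pairs were above all 16. Pparg and Lpin1 correlated at 0.310 to 0.780 in 3T3-L1 cells (median 0.587), so the B cell value of 0.371 for this pair lay within their range. The Ifng library of the B cells was also positively correlated with the fat-gene libraries of the other line. It correlated at 0.236 to 0.271 with the Pparg libraries of 3T3-L1 cells and at 0.139 to 0.217 with their Lpin1 libraries. With the Ifng libraries of 3T3-L1 cells, the B cell library of Lpin1 correlated at -0.351 to -0.150 and that of Pparg at -0.0721 to 0.118. With the 8 libraries of its own bait in 3T3-L1 cells, the Ifng library correlated at 0.312 to 0.463, below the 0.671 to 0.777 of the replicate pairs of that bait. For Pparg (0.427 to 0.541, replicates 0.502 to 0.811) and Lpin1 (0.509 to 0.693, replicates 0.494 to 0.697) these ranges overlapped.

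**Figure D2:**
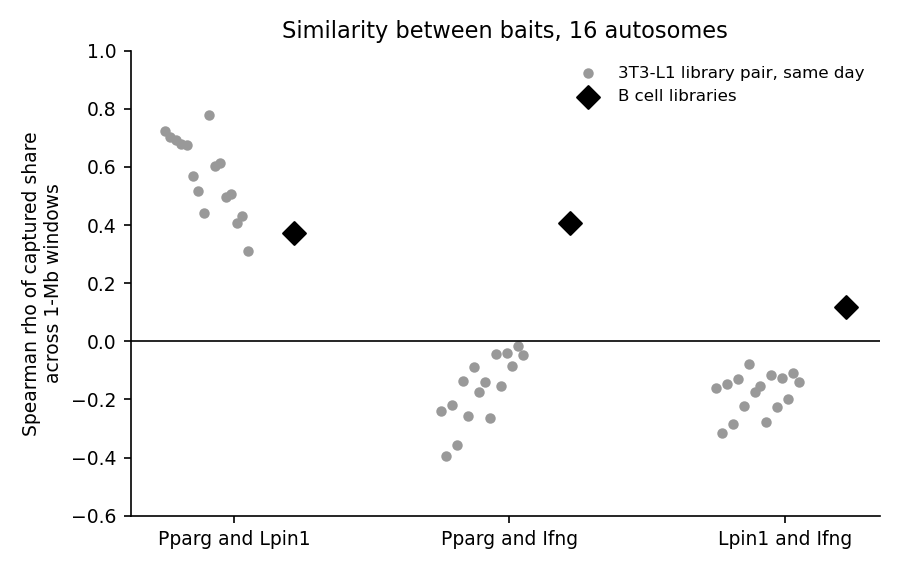
Spearman correlation of captured share across 2021 windows of 1 Mb (y) for each pair of baits (x). Grey points are the 16 same-day pairs of 3T3-L1 libraries and the black diamond is the pair of B cell libraries. The diamond lies within the grey points for Pparg and Lpin1, at 0.371, and above all of them for the pairs with Ifng, at 0.408 and 0.118.

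A part of the likeness of Pparg and Ifng ran along the position gradient. With the HindIII site count and the position along the chromosome removed from the ranks, their correlation was 0.213, that of Lpin1 and Ifng was 0.198 and that of Pparg and Lpin1 was 0.429. The same step left the 3T3-L1 pairs with Ifng negative, at -0.414 to -0.0727 with Pparg and at -0.299 to -0.0936 with Lpin1. The positive sign in B cells was therefore also present apart from position and site count. It also held, at 0.301 and 0.532 for Pparg and Ifng, in windows of 500 kb and 2 Mb.

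The number of HindIII sites in a window was related to capture by all 3 baits. The windows were put into 4 groups of about equal size by it. In the group of windows with the fewest sites (65 to 298), the multiple was 1.59 for Pparg, 1.37 for Lpin1 and 1.28 for Ifng. In the group with the most sites (344 to 434) it was 0.712, 0.798 and 0.830. Both fat-gene baits stood within their 3T3-L1 ranges in these groups, 1.42 to 1.92 and 0.613 to 0.796 for Pparg and 1.36 to 1.56 and 0.750 to 0.829 for Lpin1. Ifng did not: its 3T3-L1 libraries had 0.859 to 0.966 in the group with the fewest sites and 0.978 to 1.04 in that with the most. Across windows the Spearman correlation of captured share with site count was -0.349, -0.303 and -0.261 for Pparg, Lpin1 and Ifng in B cells, and with site count alone removed the correlations between baits were 0.297, 0.351 and 0.0422.

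**Figure D3:**
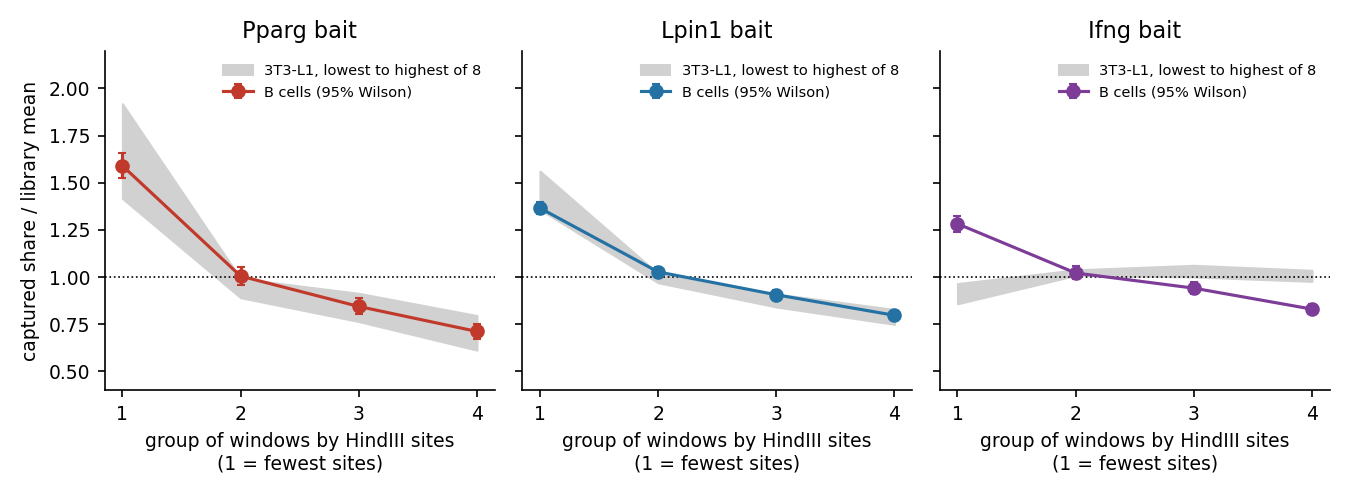
Captured share relative to the library's mean (y) in 4 groups of the windows ordered by their number of HindIII sites (x), with 1 panel per bait. Coloured points are the B cell library with its 95% Wilson interval and the grey band spans the 8 3T3-L1 libraries. The B cell line falls from left to right in all 3 panels and leaves the band for Ifng, at 1.28 in the first group against 0.859 to 0.966.

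Windows favoured by all baits at once were counted at 3 thresholds. A multiple of at least 1 for all 3 was found in 266 of 2021 windows (13.2%), one of at least 1.5 in 48 and one of at least 2 in 4. For Pparg, Lpin1 and Ifng alone, 841, 870 and 825 windows reached a multiple of 1. The threshold of 1.5 was reached by 477, 458 and 404, and that of 2 by 270, 201 and 185. The counts that unrelated baits would share at these thresholds were not computed. The 101 windows with the highest share of each bait had 7 in common between Pparg and Lpin1 (6.93% of each list), 11 between Pparg and Ifng (10.9%) and 2 between Lpin1 and Ifng (1.98%). Each list is the top 5% of windows, so unrelated lists would share about 5% of their windows. Of the 5 windows whose lowest multiple was highest, 3 lay on chromosome 16, at 11 to 12, 34 to 35 and 4 to 5 Mb. The first of these had 9, 35 and 22 captured of 303 sites for Pparg, Lpin1 and Ifng, which are multiples of 2.93, 3.38 and 3.52. In 3T3-L1 cells the Pparg bait had 0.654 to 1.69 there. The other 2 lay on chromosome 15 at 85 to 86 Mb (8, 19 and 12 of 225 sites) and on chromosome 11 at 100 to 101 Mb (7, 26 and 11 of 279 sites). At both of these the Ifng multiple, 2.58 and 1.91, was above all 8 of its 3T3-L1 libraries, which had 0.524 to 1.07 on chromosome 15 and 0.301 to 0.882 on chromosome 11. The 5 windows were picked by their B cell multiples, so B cell values above the 3T3-L1 values follow in part from the choice.

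The windows most captured by each single bait were different ones. The 5 highest of Ifng were all on chromosome 16, between 40 and 63 Mb. The highest, at 62 to 63 Mb, had 65 captured of 361 sites (18.0%, 95% exact interval 14.2% to 22.4%), a multiple of 8.72. The Lpin1 bait captured 3 sites there and the Pparg bait 4. It was a favoured window in the 3T3-L1 libraries too, with Ifng multiples of 6.90 to 15.5. The next 4, at 42 to 43, 45 to 46, 41 to 42 and 40 to 41 Mb, had Ifng multiples of 6.46, 6.32, 6.14 and 5.50.

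The 5 highest windows of Pparg were spread over chromosomes 8, 14, 7 and 11. They began with 14 of 237 sites at 123 to 124 Mb of chromosome 8 (5.91%, exact interval 3.27% to 9.71%; multiple 5.84) and 17 of 302 sites at 66 to 67 Mb of chromosome 14 (multiple 5.56). At 106 to 107 Mb of chromosome 7 and 126 to 127 Mb of chromosome 8 the Pparg multiples were 5.29 and 5.15, and at 118 to 119 Mb of chromosome 11 it was 5.09. The window on chromosome 7 was above all 8 3T3-L1 libraries of the bait (0.757 to 3.39), and the Ifng bait, at 2.27, was above its own (0.386 to 0.999). It was picked by its Pparg share in B cells, so the Pparg value above the 3T3-L1 values follows in part from the choice.

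The 5 highest windows of Lpin1 lay on chromosomes 11, 19, 7, 14 and 15. The first, at 3 to 4 Mb of chromosome 11, had 41 of 292 sites (14.0%, exact interval 10.3% to 18.6%; multiple 4.11), against 3.55 to 8.54 in its 3T3-L1 libraries. The others were at 40 to 41 Mb of chromosome 19 (38 of 304 sites, multiple 3.66), 52 to 53 Mb of chromosome 7 (29 of 235, 3.61), 21 to 22 Mb of chromosome 14 (35 of 285, 3.59) and 81 to 82 Mb of chromosome 15 (31 of 258, 3.51). The window on chromosome 7 held 1 captured site of Pparg and 2 of Ifng, and that on chromosome 15 held 9 of Pparg (multiple 3.45) and 2 of Ifng.

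Whole chromosomes differed most for Ifng and Lpin1. Chromosome 16 was the highest for Ifng, with a multiple of 2.16 (95% Wilson interval 2.05 to 2.28), just under the range of 2.18 to 3.44 of its 3T3-L1 libraries. It had 1.11 for Pparg and 1.08 for Lpin1. The multiple of Ifng there was 1.57 where at least 2 reads were asked of a site and 1.62 by reads per site. The second chromosome of Ifng was 2, at 1.08, and its lowest were 7, at 0.745, and 18, at 0.846. Chromosome 19 was the highest for Lpin1, at 1.95 (1.85 to 2.06; 3T3-L1 1.79 to 2.00), followed by 11, at 1.40, and its lowest were 1, at 0.712, and 3, at 0.746. On chromosome 19 the other baits stood below all of their 3T3-L1 libraries: Pparg at 1.08 (0.942 to 1.24) against 1.35 to 1.72, and Ifng at 0.898 (0.808 to 0.997) against 1.12 to 1.37. Pparg had the narrowest range, from 1.28 (1.17 to 1.40) on chromosome 11 and 1.11 on chromosome 16 down to 0.878 on chromosome 7 and 0.874 (0.774 to 0.988) on chromosome 18. Across the 16 chromosomes the multiples of Pparg and Ifng had a Spearman correlation of 0.662 and a Pearson correlation of 0.373, those of Pparg and Lpin1 0.441 and 0.491, and those of Lpin1 and Ifng 0.0147 and -0.000955. With each bait's mean multiples over its 3T3-L1 libraries, the Spearman values were 0.497, 0.788 and 0.638 in the same order. Across whole chromosomes, unlike across windows, both Ifng pairs were thus positive in 3T3-L1 cells.

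**Figure D4:**
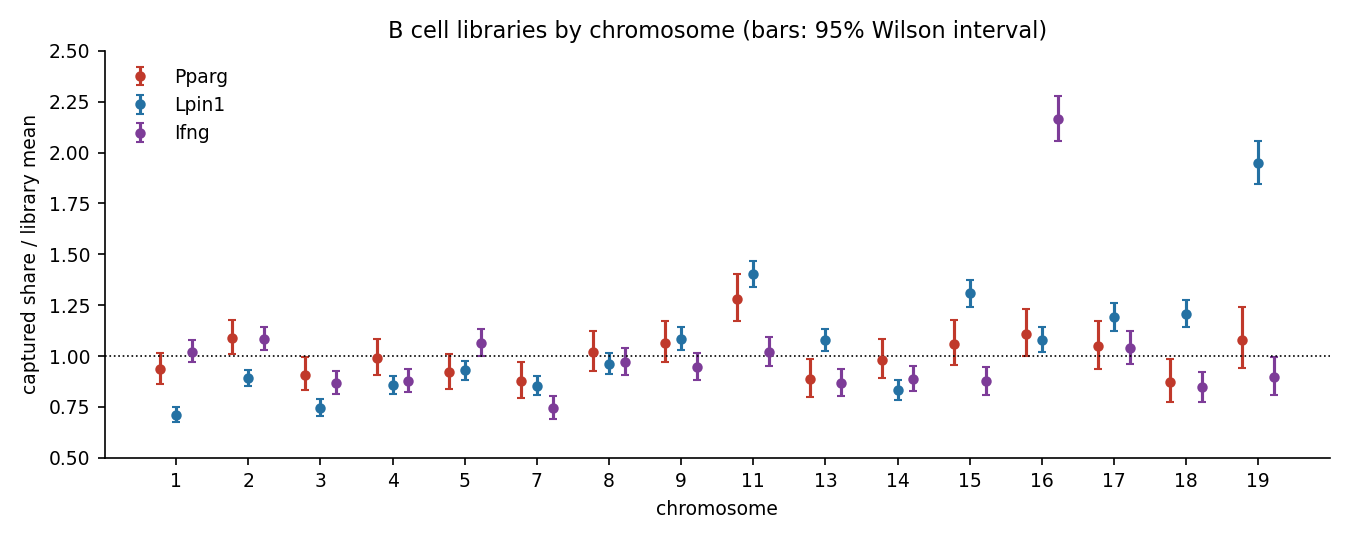
Captured share of each chromosome relative to the library's mean (y) for the 16 chromosomes without a bait (x) in the 3 B cell libraries. Points are 1 library each and bars are 95% Wilson intervals. Ifng stands apart on chromosome 16, at 2.16, and Lpin1 on chromosome 19, at 1.95.

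At the other baits' loci, the Ifng region was captured by both fat-gene baits. Within 1 Mb of the Ifng bait site, the Lpin1 bait captured 67 of 629 sites (10.7%), a multiple of 3.11 (exact interval 2.44 to 3.90), and the Pparg bait 19 of 629 (3.02%), a multiple of 2.98 (1.81 to 4.62). Both were below all 8 3T3-L1 libraries of the bait, 3.95 to 12.03 for Lpin1 and 3.57 to 9.001 for Pparg. Around the Pparg site the multiples were 1.32 (0.895 to 1.86) for Lpin1 and 1.31 (0.779 to 2.05) for Ifng. That of Ifng was above its 3T3-L1 range of 0.718 to 1.29 and below the 1.55 of chromosome 6 as a whole. Around the Lpin1 site they were 0.790 (0.257 to 1.83) for Pparg and 0.697 (0.320 to 1.32) for Ifng. No B cell library had a read exactly at another bait's site.

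Window by window, Lpin1 and Ifng were the pair with the most windows called different. Both other pairs include Pparg, the library with the fewest captured sites. No fit at equal depth was run, so the pairs cannot be ranked by these calls. The number of captured sites per window was tested with edgeR's quasi-likelihood test in 1 fit over all 27 libraries, with Benjamini-Hochberg adjustment and a threshold of 0.05. Since each bait has 1 B cell library, the spread comes from the libraries within the 3T3-L1 samples (12 residual degrees of freedom) and the B cell libraries are assumed to vary like them. The labels do not say that replicates are separate cultures, so the p-values measure the spread between libraries. Of 1969 windows tested, 199 (10.1%) passed for Lpin1 against Ifng, 111 higher with Lpin1 (5.64%) and 88 higher with Ifng (4.47%). For Pparg against Ifng 3 windows passed (0.152%), all higher with Ifng, and at an unadjusted p under 0.05 there were 191. For Pparg against Lpin1 none passed in edgeR (0%) or DESeq2, with 286 and 95 at an unadjusted p under 0.05. DESeq2 called 24 windows for Lpin1 against Ifng, all higher with Ifng, and 8 for Pparg against Ifng. The median log2 differences over all windows were -0.22, -0.13 and 0.06 in edgeR and -0.09, -0.31 and -0.25 in DESeq2, for Pparg minus Lpin1, Pparg minus Ifng and Lpin1 minus Ifng. On read counts in place of captured sites, no window passed in any pair, with 49, 25 and 49 at an unadjusted p under 0.05.

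The windows that differed between Lpin1 and Ifng lay at opposite chromosome ends. Of the 111 higher with Lpin1, 65 (58.6%) were in the first segment of a chromosome and 2 (1.80%) in the last. Of the 88 higher with Ifng, 3 (3.41%) were in the first segment and 54 (61.4%) in the last. Of all 1969 windows tested, 19.5% were in the first segment and 20.6% in the last. They were spread over 15 of 16 chromosomes in each direction. Chromosome 16 held 16 of the 88 windows higher with Ifng and none of the 111 higher with Lpin1.

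Among the windows higher with Lpin1, the smallest p belonged to 7 to 8 Mb of chromosome 9, where Lpin1 captured 42 of 411 sites and Ifng 2. The ratio of their multiples was 12.7 (95% counting interval 3.298 to 108) and the edgeR log2 difference 3.65 ± 0.713 (SE), with an adjusted p of 0.000167. At 53 to 54 Mb of chromosome 11 Lpin1 captured 23 of 279 sites and Ifng none, and at 29 to 30 Mb of chromosome 7 it captured 22 of 215 and Ifng none. Against a floor of 3 sites in the Ifng library, the Lpin1 multiple was at least 4.63-fold and at least 4.43-fold higher there (edgeR adjusted p 0.00117 and 0.00153). The 3T3-L1 means of Lpin1 exceeded those of Ifng at all 3 windows, at 1.34, 2.66 and 2.97 against 0.524, 0.391 and 0.320. DESeq2 called none of these windows and gave no adjusted p for those on chromosomes 9 and 7.

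Among those higher with Ifng, 62 to 63 Mb of chromosome 16 had 3 captured sites of Lpin1 against 65 of Ifng, a ratio of multiples of 35.9 (11.7 to 179) in favour of Ifng and an edgeR adjusted p of 3.2e-05. At 40 to 41 Mb of chromosome 16 the counts were 2 against 41 (ratio 34.0, 8.82 to 290). At 161 to 162 Mb of chromosome 2, Lpin1 had no captured site of 339 and Ifng 16, which is at least 8.83-fold higher for Ifng (edgeR adjusted p 0.000167). There the 3T3-L1 means were 0.231 for Lpin1 and 2.62 for Ifng. These calls depend on the rule for a captured site: when a site needed at least 2 reads, 1 window passed for Lpin1 against Ifng, and none of the 6 windows named for this pair had an adjusted p under 0.05.

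The 3 windows that passed for Pparg against Ifng were all on chromosome 16, at 8 to 10 Mb and at 39 to 40 Mb. Pparg captured no site in any of them, out of 343, 378 and 345, and Ifng captured 35, 36 and 35. The Ifng multiple was at least 5.72-fold, 5.88-fold and 5.72-fold higher, with an edgeR adjusted p of 0.0213 at each. None of them passed when a captured site needed at least 2 reads (adjusted p 0.72). Without either of the day 0 libraries of Ifng in 3T3-L1 cells, 7 windows passed. In the other direction the smallest p was at 66 to 67 Mb of chromosome 14, with 17 against 7 sites and an adjusted p of 0.212. For Pparg against Lpin1, the smallest p belonged to 23 to 24 Mb of chromosome 11, where Pparg captured none and Lpin1 32 of 304 sites (adjusted p 0.0654), and to 139 to 140 Mb of chromosome 4, with 11 against 4 of 229 sites (adjusted p 0.113). In windows of 2 Mb, 40 of 1011 passed for this pair.

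Whether a difference between baits was itself different in B cells and 3T3-L1 cells was tested as an interaction in the same fit. The contrasts with Ifng share its libraries, so they are given side by side. For Pparg and Ifng 31 of 1969 windows passed (1.57%), 10 with a difference shifted toward Pparg in B cells (0.508%) and 21 toward Ifng (1.07%). For Lpin1 and Ifng 34 passed (1.73%), 11 shifted toward Lpin1 (0.559%) and 23 toward Ifng (1.17%). Without replicate 1 of Lpin1 at day 6 this count was 13 and without replicate 2 of Ifng at day 6 it was 19. In windows of 500 kb 1 window passed for Pparg and Ifng and none for Lpin1 and Ifng (351 and 326 at an unadjusted p under 0.05 in edgeR, DESeq2 not run there), and by reads none passed for either (77 and 63). For Pparg and Lpin1 none passed in edgeR (0%) or DESeq2, with 198 and 63 at an unadjusted p under 0.05. The median log2 interactions over all windows were -0.24, 0.20 and -0.34 in that order in edgeR and 0.73, 0.73 and 0.09 in DESeq2. With the size factors of DESeq2, 8 windows passed for Pparg and Ifng, all shifted toward Pparg, and none for Lpin1 and Ifng, where 169 had an unadjusted p under 0.05. Besides the scaling, DESeq2 differs from edgeR in its estimate of the spread and in its test. Which of these turned the direction of the split was not tested. Of the windows shifted toward Ifng, 13 of 21 (61.9%) and 15 of 23 (65.2%) lay in the last segment of a chromosome, and 10 of 21 (47.6%) and 13 of 23 (56.5%) in the group with the fewest HindIII sites, which held 24.0% of the windows tested.

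In the windows named among those shifted toward Ifng, the fat-gene bait had the higher mean in 3T3-L1 cells and Ifng the higher multiple in B cells. They were picked by the smallest p of this same contrast, so B cell values outside the 3T3-L1 values follow in part from the choice. In B cells the counting interval of the ratio to Ifng included 1 at the windows on chromosome 2 (0.0923 to 1.89 and 0.160 to 2.24). It lay below 1 at those on chromosomes 7 and 17 (0.0869 to 0.786 and 0.169 to 0.827). At 118 to 119 Mb of chromosome 2 the Pparg multiple was 2.77 to 6.40 over the 3T3-L1 libraries and 1.05 (3 of 283 sites) in the B cell library, and the Ifng multiple was 0.171 to 1.04 and 2.05 (12 sites). At 167 to 168 Mb of chromosome 2 Pparg had 3.50 to 7.31 and 1.60 (4 of 247 sites), and Ifng 0.168 to 1.19 and 2.35 (12 sites). At both, each bait's B cell value lay outside its 3T3-L1 values, with an edgeR interaction of -3.82 ± 0.867 (SE) and -3.78 ± 0.868 and an adjusted p of 0.0073 at each. For Lpin1 and Ifng, 148 to 149 Mb of chromosome 7 had 6 and 13 of 217 sites, multiples of 0.809 and 2.90 against 1.28 to 3.15 and 0.425 to 1.34 in 3T3-L1 cells. At 84 to 85 Mb of chromosome 17 the sites were 12 and 19 of 273, multiples of 1.29 and 3.37 against 1.98 to 4.29 and 0.354 to 1.38. Both had an edgeR adjusted p of 0.00702. None of these 4 windows passed in DESeq2, and all 4 passed in edgeR when a captured site needed at least 2 reads.

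In the windows named among those shifted the other way, Ifng had the higher mean of the pair in 3T3-L1 cells. At 92 to 93 Mb of chromosome 11, Pparg captured 10 of 344 sites (multiple 2.87, against 0 to 0.658 in 3T3-L1 cells) and Ifng 9 (1.27, against 1.93 to 2.503). At 71 to 72 Mb of the same chromosome each captured 8 of 310 sites, multiples of 2.55 against 0 to 0.920 for Pparg and 1.25 against 1.08 to 1.90 for Ifng. Their edgeR adjusted p was 0.0073 and 0.00912, and in DESeq2 0.00487 and 0.0268. For Lpin1 and Ifng, 9 to 10 Mb of chromosome 5 had 17 and 6 of 365 sites, multiples of 1.36 (3T3-L1 0 to 0.786) and 0.796 (1.44 to 2.12). At 50 to 51 Mb of chromosome 14 the counts were 9 and 0 of 341, a Lpin1 multiple of 0.772 (3T3-L1 0 to 0.998). Both had an edgeR adjusted p of 0.0294 and missed the threshold in DESeq2. For Pparg and Lpin1, where nothing passed, the smallest p in each direction belonged to 129 to 130 Mb of chromosome 5 (5 and 1 of 224 sites, adjusted p 0.241) and 29 to 30 Mb of chromosome 13 (1 and 21 of 319 sites, 0.0601).

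On the bait's own chromosome, reads of the 3 B cell libraries fell with distance at like rates when both sides of the bait were pooled, and at unlike rates on each side. Between 100 kb and 10 Mb the pooled slope of reads per site against distance, both as log10, was -1.19 for Pparg, -1.24 for Lpin1 and -1.15 for Ifng. In 3T3-L1 cells it was -1.49 ± 0.0157, -1.18 ± 0.0359 and -1.33 ± 0.0449 (mean ± SD, n = 4 samples). The Pparg and Ifng slopes in B cells were shallower than all 8 of their 3T3-L1 slopes, and the Lpin1 slope, at -1.240, was just steeper than the steepest of its 8, -1.237. On the low-coordinate side the B cell slopes were -1.29 for Pparg, -1.01 for Lpin1 and -0.920 for Ifng, and on the high side -1.01, -1.56 and -1.23. The slope of the captured share, in place of reads, was -0.255, -0.230 and -0.0891. In 3T3-L1 libraries it was -0.676 to -0.184, -0.647 to -0.268 and -0.195 to -0.0292. By this measure Pparg and Ifng lay within their 3T3-L1 ranges, and Lpin1 was shallower than all 8 of its libraries. The Lpin1 library of B cells also captured the most sites of its bait chromosome, 35.6% against 6.14% to 30.5%. Among its 3T3-L1 libraries, the one with 6.14% had the steepest slope, -0.647, and the one with 30.5% the shallowest, -0.268. Slopes at equal capture were not computed. The distance that parted the bait chromosome's reads into equal nearer and farther portions, 10 kb around the bait left out, was 594 kb for Pparg, 676 kb for Lpin1 and 589 kb for Ifng. In 3T3-L1 cells it was 179 to 317 kb, 650 to 859 kb and 902 to 1060 kb. These ranges did not overlap, whereas the B cell values of Pparg and Ifng both lay between their 3T3-L1 ranges. The reads within 1 Mb made up 54.2%, 58.5% and 59.4% of bait chromosome reads, against 67.3% ± 1.53, 59.99% ± 1.33 and 51.5% ± 0.754 (SD, n = 4) in 3T3-L1 cells. For Ifng, 1 band of distance weighs on both of these measures. Reads at 10 to 20 Mb were 8.05% of its bait chromosome reads in B cells and 24.0% to 32.3% in 3T3-L1 libraries. Neither measure was computed without that band, so a nearer reach of Ifng in B cells cannot be read from them.

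**Figure D5:**
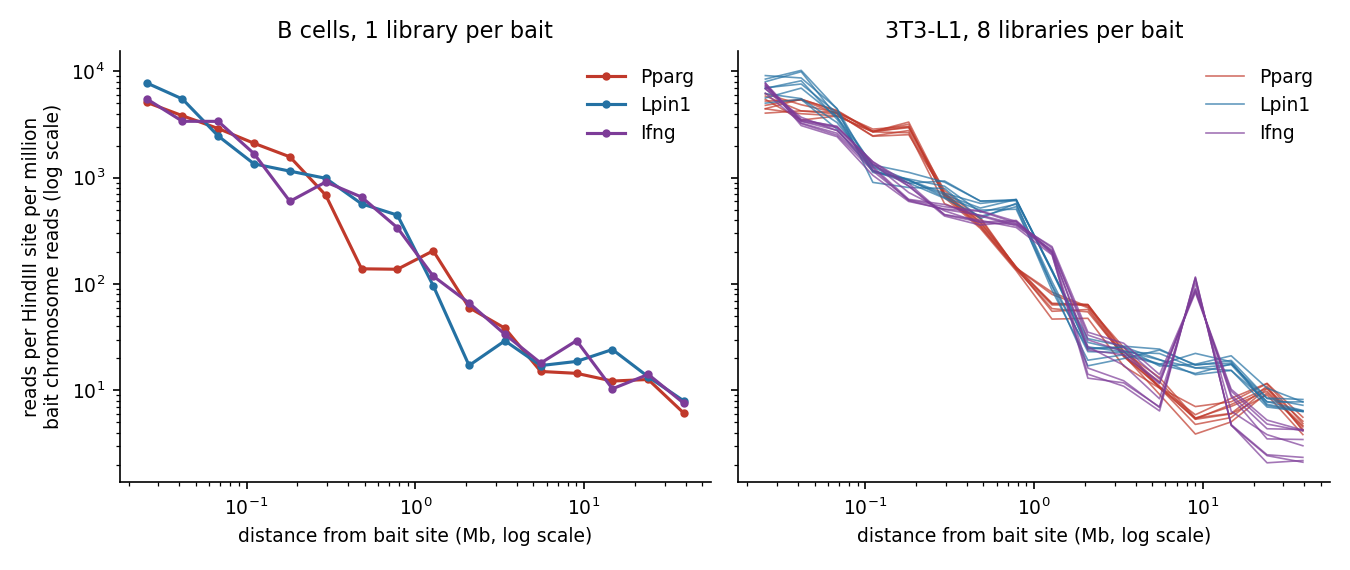
Reads per HindIII site per 1000000 bait chromosome reads (y, log scale) against distance from the bait site (x, log scale), for the 3 B cell libraries (left) and the 24 3T3-L1 libraries (right), with 10 kb around the bait left out. The B cell curves cross: at 0.783 Mb Pparg is lowest, at 138 against 445 for Lpin1 and 339 for Ifng, and at 2.08 Mb Lpin1 is lowest, at 17.1 against 60.01 for Pparg and 66.3 for Ifng. At 9.03 Mb the Ifng curve reaches 29.4 in B cells and 83.2 to 117 in 3T3-L1 libraries.

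The curves were not smooth. For Pparg, reads per site dropped from 53.5 at 200 to 500 kb to 14.1 at 500 kb to 1 Mb and were 16.6 at 1 to 2 Mb, where the captured share was 78.7% (Wilson interval 75.1% to 81.9%) after 68.3% (63.3% to 73.0%). Lpin1 reads per site fell from 511 at 500 kb to 1 Mb to 73.6 at 1 to 2 Mb and were 19.2 at 5 to 10 Mb and 24.2 at 10 to 20 Mb, with captured shares of 42.6% (40.9% to 44.3%) and 58.1% (56.6% to 59.6%). Ifng fell from 68.3 to 17.4 reads per site over the first of these steps and had 2.96 and 3.22 at the last, where its captured share fell from 46.9% (45.2% to 48.7%) to 39.4% (37.9% to 40.9%). Within 10 to 100 kb all 61 sites were captured for Pparg, 42 of 44 for Lpin1 and 38 of 56 for Ifng.

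The sides of the bait were unequal in different directions. Of the reads within 1 Mb, 59.4% lay on the low-coordinate side of the bait for Pparg, 53.4% for Lpin1 and 39.5% for Ifng. In 3T3-L1 cells these shares were 59.5% to 63.5%, 43.9% to 49.3% and 50.3% to 54.6%. Of the HindIII sites within 1 Mb, 53.3%, 55.1% and 48.2% lay on that side for Pparg, Lpin1 and Ifng. The Ifng share of reads was thus above its share of sites in all 8 3T3-L1 libraries and below it in B cells. The Lpin1 share of reads was below its share of sites in all 8 3T3-L1 libraries and, by less, in B cells. By captured sites in place of reads the low-side shares were 50.7%, 55.1% and 43.3%, against 48.5% to 54.2%, 54.9% to 56.1% and 43.4% to 45.1% in 3T3-L1 cells. By that measure Lpin1 stood near its share of sites and Ifng below its own in both cell lines. For Lpin1 the measure had little room to differ from the share of sites. Of the sites within 1 Mb of its bait, 96.3% were captured in B cells and 77.1% to 91.6% in 3T3-L1 libraries.

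Beyond 10 Mb the bait chromosomes held blocks of dense capture. The Pparg bait captured 52.5% and 54.6% of sites in the adjoining windows at 126 to 128 Mb of chromosome 6 and 48.6% at 91 to 92 Mb, against 16.3% over its 126 far windows. The window at 126 to 127 Mb was 3.23 times that mean, above all 8 3T3-L1 libraries (1.49 to 1.92), and that at 127 to 128 Mb was 3.35 times, within their range (2.25 to 3.37). The Lpin1 bait captured 79.9% of sites at 4 to 5 Mb of chromosome 12 and 75.3% and 73.7% at 32 to 34 Mb, against 31.8% over 98 windows. The first was 2.52 times the mean, below all of its 3T3-L1 libraries (2.68 to 4.44). A window cannot have more captured sites than sites, so this multiple has a lower ceiling where more far sites are captured. At 20 to 50 Mb from the bait the Lpin1 library of B cells captured 34.9% of sites and its 3T3-L1 libraries 3.37% to 27.4%. The lower multiple can therefore not be read as weaker contact in B cells. The Ifng bait captured 60.1% at 93 to 94 Mb of chromosome 10, 50.6% at 106 to 107 Mb and 46.5% at 98 to 99 Mb, against 17.5% over 106 windows. Its windows at 93 to 94 and 98 to 99 Mb were 3.43 and 2.65 times the mean, above the 1.27 to 2.27 and 1.02 to 1.60 of 3T3-L1 cells, while that at 106 to 107 Mb, at 2.89 times, lay within 2.43 to 4.60. The far windows named for each bait were picked by their B cell capture, so values above those of 3T3-L1 cells follow in part from the choice.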

How the data were processed

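The authors deposited counts, whole numbers of reads per HindIII site at 823355 sites in each of 27 files, without normalisation. Per the submitters' processing notes, reads were aligned with Bowtie (no version) to mm9. Read filters, removal of duplicates and the name of the B cell line are not given in the sources used here. The bait site is the site with the most reads, and 10 kb on each side of it was left out. Captured sites were summed over 1-Mb windows of the 16 autosomes other than 6, 10 and 12. The plan's count of these autosomes was wrong by 1, and the list was used as meant. Multiples, correlations, slopes (8 distance bins) and intervals were computed in Python 3.11.15 with NumPy 2.4.6 and SciPy 1.17.1, and figures drawn with matplotlib 3.10.9. Windows with a mean of at least 3 captured sites went into edgeR 4.0.16, run in R 4.3.3 (TMM, robust quasi-likelihood fit, 15 groups), with DESeq2 1.42.0 as an alternative. The fit and the slope were tested on simulated data. Intervals are at 95%.

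Windows are named by rule: the 5 highest captured shares per bait, the 5 whose lowest multiple is highest, up to 3 per direction and pair (2 for interactions) by smallest p among those passing, the smallest p as not passing otherwise, the 3 highest windows over 10 Mb from each bait, and the 2 highest and 2 lowest chromosomes. The members, rules and tests were chosen with earlier results of these data known. The available gene table is of another build than mm9, so no gene is placed in a window and no sequence is printed. Alternatives were other window sizes, at least 2 reads per captured site, reads in place of sites, thinning to 19025 reads per library, other zones and distance ranges, each side of the bait, reads capped at the 99th percentile, no filter, DESeq2, the replicate number as a block and leaving out each library in turn.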

Additional observations from a re-analysis of the deposited data

Results flagged for a closer look

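The difference between baits changed from 3T3-L1 to B cells in the interaction test in 31 windows for Pparg and Ifng and in 34 for Lpin1 and Ifng. For Pparg minus Ifng the log2 interactions of the windows named for it were 3.58 at 92 to 93 Mb and 3.98 at 71 to 72 Mb of chromosome 11, and -3.82 at 118 to 119 Mb and -3.78 at 167 to 168 Mb of chromosome 2. For Lpin1 minus Ifng they were 7.54 at 50 to 51 Mb of chromosome 14, a fitted value that rests on no captured site of Ifng in B cells and is no bound, 2.82 at 9 to 10 Mb of chromosome 5, -3.40 at 148 to 149 Mb of chromosome 7 and -3.16 at 84 to 85 Mb of chromosome 17. The counts differ between edgeR and DESeq2, as given above.

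The X chromosome, which none of the comparisons used, held captured sites for all 3 baits in B cells: 0.334% of its 53275 sites for Pparg, 1.27% for Lpin1 and 0.862% for Ifng. These are 0.330, 0.372 and 0.417 times the share of the 16 autosomes, within the 3T3-L1 ranges of 0.301 to 0.470, 0.370 to 0.460 and 0.398 to 0.529.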

How the results depend on the processing

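Of the 17 calls of named windows, DESeq2 kept 8, lost 7 and gave no adjusted p for 2, at least 2 reads per captured site kept 7, lost 9 and left 1 untested, and reads per window lost all 17. Under DESeq2 the median log2 difference over all windows turned its sign for Lpin1 minus Ifng (0.06 to -0.25) and for the interactions of Pparg minus Ifng (-0.24 to 0.73) and Pparg minus Lpin1 (-0.34 to 0.09), and the interaction calls of Pparg and Ifng went from 10 toward Pparg and 21 toward Ifng to 8 and 0. The correlation of Pparg and Lpin1 was 0.223 with at least 2 reads per captured site and 0.201 by reads per site. That of Pparg and Ifng was 0.301 in windows of 500 kb, 0.532 in windows of 2 Mb, 0.287 without the first and last of the 5 segments and 0.213 with site count and position removed. The last 2 were added after the data were seen, as was leaving out chromosome 16, which moved none of the 3 correlations by over 0.1. The Ifng multiple of chromosome 16 was 1.57 with at least 2 reads, 1.97 after thinning and 1.62 by reads per site. Slopes for Pparg, Lpin1 and Ifng were -0.255, -0.230 and -0.0891 by captured share, -0.982, -0.969 and -0.949 to 50 Mb, and -1.29, -1.01 and -0.920 on the low-coordinate side. On the high-coordinate side they were -1.01 for Pparg, -1.56 for Lpin1 and -1.23 for Ifng, with capped reads -1.04 for Pparg and -0.999 for Ifng, and from 20 kb -1.13 for Lpin1. The share of reads within 1 Mb was 35.2%, 48.4% and 46.1% with a zone of 100 kb, 34.5%, 47.1% and 44.7% with capped reads, and 5.32%, 4.40% and 5.15% by captured sites.

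Pparg against Lpin1 had 40 windows at 2 Mb. Pparg against Ifng had 8 in DESeq2 and 0 by reads, in 500 kb windows and with at least 2 reads, where 25, 235 and 84 had an unadjusted p under 0.05. Lpin1 against Ifng had 24 in DESeq2, 13 in 500 kb windows (1 higher with Lpin1, 12 with Ifng), 1 with at least 2 reads and 0 by reads (49 unadjusted). The interactions, in the order Pparg and Lpin1, Pparg and Ifng, Lpin1 and Ifng, had 2, 43 and 74 in 2 Mb windows and 0, 1 and 0 in 500 kb windows (209, 351 and 326 unadjusted), both added after the data were seen. By reads they had 0 each (47, 77 and 63 unadjusted), and in DESeq2 0, 8 and 0 (63, 237 and 169 unadjusted). Leaving out each 3T3-L1 library in turn gave 0 to 0, 3 to 7 and 181 to 217 windows for the pairs and 0 to 2, 22 to 38 and 13 to 46 for the interactions. The highest for Pparg against Ifng came without either day 0 library of Ifng. The 2 interaction windows of Pparg and Lpin1 came without replicate 2 of Lpin1 at day 0. The interaction count of Lpin1 and Ifng was 13 without replicate 1 of Lpin1 at day 6 and 19 without replicate 2 of Ifng at day 6. The cause of these changes was not tested.

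Of 528 leave-one-out values of the named windows, 526 kept their direction and their side of the threshold, 1 gained a call and 1 lost it. Each B cell library is 1 sample and has no replicate to leave out. The B cell libraries carry no replicate number, so the replicate number could be a block for the 3T3-L1 libraries only, an alternative added after the data were seen. The difference of replicate 2 and replicate 1 correlated across windows at 0.216 to 0.511 between days for Ifng, at 0.0222 to 0.163 for Pparg, at -0.0183 to 0.307 for Lpin1 and at -0.0608 to 0.0627 between baits, so the numbers did not pair the baits. With 1 replicate block for all baits, 0, 8 and 220 windows passed for the pairs and 1, 29 and 41 for the interactions, and with a replicate block within each bait 1, 10 and 246, and 1, 50 and 46. All 17 named calls were kept under both, and 1 and 2 more named windows passed.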
